A study of Mus musculus with 30 samples.

Results

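Inflammatory cytokines and the inflammasome were followed through 10 genes, Il1a, Il1b, Il1rn, Tnf, Il6, Nlrp3, Casp1, Il18, Il33 and Cd14, chosen by symbol for their known roles out of 39179 gene identifiers. RNA was sequenced in bulk from the ventral prostate (VP) of 30 male C57/BL6 mice, with 1 library per mouse and 27590631 to 41301707 counts on genes per library. From weaning the mice ate 1 of 3 diets of normal fat content, in which the fat was linseed oil (LO, rich in linolenic acid), soybean oil (SO, rich in linoleic acid) or lard (PF, pork fat, rich in saturated fatty acids). Each diet had 5 mice at 12 weeks of feeding and 5 other mice at 32 weeks, and the comparisons ask how the kind of fat and the time on it bear on these transcripts. Levels are CPM, the counts of a gene per 1000000 counts after scaling over all 30 libraries, given as mean ± SD of 5 mice unless stated. Because the tissue was sequenced in bulk, fewer cells of a type and less RNA per cell cannot be told apart.

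IL-1α and IL-1β bind the same receptor, and the IL-1 receptor antagonist competes with them for it. IL-1β and IL-18 are made as precursors that caspase-1 cuts after NLRP3 or a related sensor assembles an inflammasome, whereas IL-33 is held in the nucleus and released from damaged cells. In the prostate, as in other glands, such transcripts come from resident and infiltrating leukocytes and in part from the epithelium and stroma, and inflammation of the gland is common with age.

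The libraries carried the transcripts of a ventral prostate. All 10 luminal epithelial markers were counted, and together they made up 108010 to 336380 CPM in each mouse. Their most abundant gene was Sbp, which encodes a spermine-binding secretory protein of the VP, at a mean of 169770 CPM and 76.3% of the sum. Of 6 seminal vesicle genes, Svs6 had 0 counts, none passed the filter on low counts, and their sum reached at most 0.306 CPM in any mouse. The 10 inflammatory genes were far below the secretory genes.

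Per kilobase of exon, the levels of the 10 genes spanned a wide range. Il33, which encodes the nuclear alarmin, was the highest at 17.2 ± 3.63 CPM per kb over 30 mice and stood above Cd14 in 30 of 30 mice with no overlap of their ranges. Cd14, which encodes the lipopolysaccharide co-receptor, followed at 5.44 ± 0.925 CPM per kb and exceeded Il18 in 30 of 30 mice. Il18 averaged 2.81 ± 1.06 CPM per kb and exceeded Il1b in 24 of 30 mice. Il1b at 1.58 ± 1.07 CPM per kb and Casp1 at 1.26 ± 0.703 CPM per kb did not separate, since Il1b was the higher of the pair in 16 of 30 mice. Tnf at 0.402 ± 0.304, Il1rn at 0.278 ± 0.316, Il1a at 0.198 ± 0.104 and Nlrp3 at 0.125 ± 0.0629 CPM per kb were all low, and neighbours in this order overlapped. Il6 was the lowest at 0.0164 ± 0.0206 CPM per kb. It had 40 counts in all, 0 counts in 10 mice and fewer than 3 counts in 26 mice, where 3 counts correspond to 0.0750 to 0.113 CPM. Il6 did not pass the filter and was not tested, while the other 9 genes did.

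The genes also differed in how far mice spread. The highest level was 98.1 times the lowest for Il1rn, 25.9 times for Il1b, 20.1 times for Il1a and 11.8 times for Tnf, against 2.21 times for Il33 and 2.06 times for Cd14. The lowest mouse had only 3 counts of Il1rn, 8 of Il1b, 2 of Il1a and 5 of Tnf. Without it these ratios were 39.7, 14.1, 9.97 and 10.7, and without the highest mouse 45.4, 24.5, 15.04 and 11.6. The plot of every mouse shows the low, scattered cytokine transcripts beside the narrow bands of Il33 and Cd14.

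**Figure D1:**
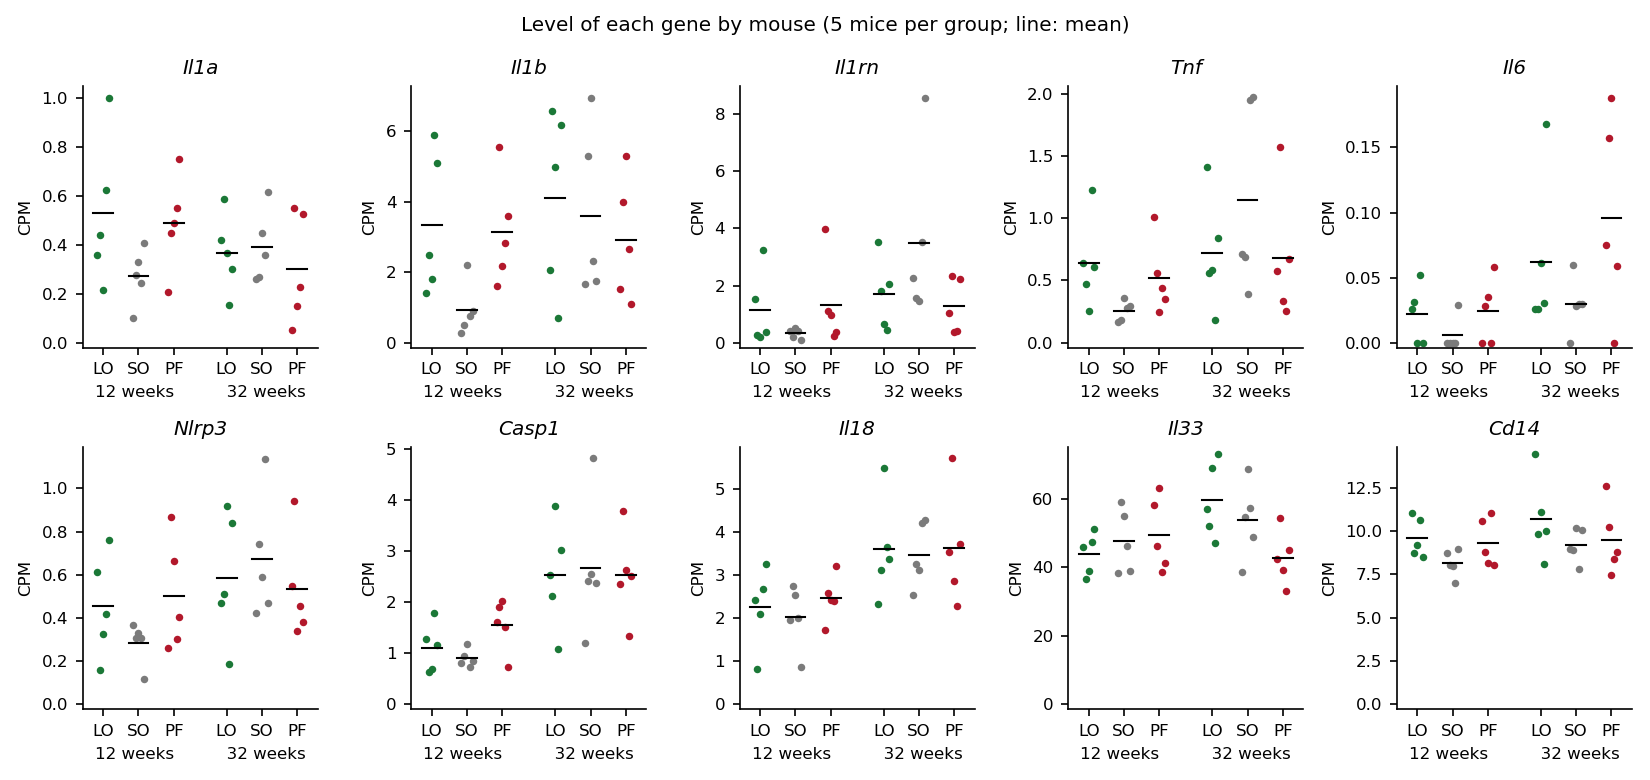
Level of each of the 10 genes in every mouse (points, CPM) by diet and time, with lines at the mean of 5 mice. On SO, the mice of 32 weeks stand above all mice of 12 weeks for Il1rn, Tnf, Nlrp3 and Casp1, while Il33 and Cd14 keep to narrow bands.

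Promoter sequence is shown for Il1rn, Tnf and Casp1, which passed the edgeR test between the time points on SO, and for Il1b, which DESeq2 also called there. The sequences are from RefSeq on GRCm38.p6, and 13 entries for 9 of the 10 genes were used, with none used for Cd14. Each gives the 250 bases before the start, 5′ to 3′ on the gene's own strand. Capitals mark matches, searched on both strands, to the letters TATAAA of the core promoter box of that name or to the AP-1 motif, TGANTCA. Il1b (ENSMUSG00000027398) lies at chr2:129364570-129371139 on the minus strand and its window is chr2:129371140-129371389. Il1rn (ENSMUSG00000026981) lies at chr2:24336853-24351494 on the plus strand, and the window of the first of its 3 listed starts is chr2:24336610-24336859. Tnf (ENSMUSG00000024401) lies at chr17:35199381-35202007 on the minus strand with the window chr17:35202008-35202257. Casp1 (ENSMUSG00000025888) lies at chr9:5298517-5307265 on the plus strand with the window chr9:5298267-5298516.
Il1b: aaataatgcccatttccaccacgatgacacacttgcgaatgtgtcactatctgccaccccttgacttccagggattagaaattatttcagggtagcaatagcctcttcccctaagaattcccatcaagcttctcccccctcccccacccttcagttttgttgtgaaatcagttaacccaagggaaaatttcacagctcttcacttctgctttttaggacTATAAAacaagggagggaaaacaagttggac
Il1rn: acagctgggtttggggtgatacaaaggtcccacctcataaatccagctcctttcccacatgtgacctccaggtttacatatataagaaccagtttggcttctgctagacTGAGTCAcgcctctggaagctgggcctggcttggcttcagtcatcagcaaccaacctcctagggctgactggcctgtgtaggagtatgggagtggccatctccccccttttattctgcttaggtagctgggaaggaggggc
Tnf: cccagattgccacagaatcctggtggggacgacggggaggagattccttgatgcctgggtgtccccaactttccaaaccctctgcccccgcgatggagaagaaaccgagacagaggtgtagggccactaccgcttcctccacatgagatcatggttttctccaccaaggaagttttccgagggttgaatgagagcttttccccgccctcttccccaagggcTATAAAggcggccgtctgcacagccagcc
Casp1: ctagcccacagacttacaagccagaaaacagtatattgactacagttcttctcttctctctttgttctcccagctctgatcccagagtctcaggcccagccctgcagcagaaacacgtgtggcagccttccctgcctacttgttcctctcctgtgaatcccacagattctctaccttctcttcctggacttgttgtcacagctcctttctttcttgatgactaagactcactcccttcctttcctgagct

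The TATAAA match began 31 bases before the start in Il1b and 29 bases before it in Tnf, and the AP-1 match TGAGTCA lay 141 bases before the start in Il1rn. The letters of these motifs were not in the Casp1 window. Among the windows not printed, Il1a held TATAAA at 32 and the AP-1 motif at 12 bases before the start, and Il6 held the AP-1 motif at 249 and the NF-κB motif at 44 bases. Il18 held TATAAA at 175 bases on the opposite strand, the Il33 windows held it at 203 and 29 bases, and 1 of the Nlrp3 windows held the NF-κB motif at 186 bases. Of 32851 RefSeq entries with a window of this length, 12.4% held TATAAA, 6.75% the AP-1 motif and 7.25% the NF-κB motif. These matches describe the letters and were not tested as binding sites.

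At 12 weeks the mean levels of the IL-1 genes were lowest on SO. Il1b, the gene of the secreted cytokine IL-1β, measured 0.268, 0.492, 2.21, 0.766 and 0.901 CPM in SO mice 1 to 5. On PF, its level was 1.61, 5.54, 2.17, 2.82 and 3.58 CPM. On LO, its level was 1.41, 2.49, 1.80, 5.91 and 5.10 CPM. SO mouse 3 reached into the range of both other diets, and the remaining 4 SO mice lay below every PF and LO mouse. The log2 fold change was 1.77 (SE 0.536) for PF over SO, with all 5 PF mice above the SO mean, and the edgeR quasi-likelihood test with Benjamini-Hochberg adjustment gave an adjusted p of 0.246. For LO over SO it was 1.86 (SE 0.536) with an adjusted p of 0.999, also with 5 of 5 mice above the SO mean. Without SO mouse 3 these values were 2.37 and 2.46. DESeq2 gave an adjusted p of 0.0409 for PF over SO, and the range over all alternatives was 0.0409 to 0.622.

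Il1rn, which encodes the receptor antagonist, was low and uneven at 12 weeks. Its level was 0.402, 0.215, 0.527, 0.398 and 0.0872 CPM in SO mice 1 to 5. On PF it was 3.96, 1.09, 0.979, 0.248 and 0.376 CPM, and on LO it was 1.54, 0.284, 0.216, 3.25 and 0.365 CPM. A few PF and LO mice were far above the others of their group, and the groups overlapped. PF exceeded SO by 2.03 in log2 fold change (SE 0.850, adjusted p 0.518), with 4 of 5 PF mice above the SO mean, and by 1.05 without PF mouse 1. Il1a, the gene of the membrane-associated and nuclear cytokine IL-1α, averaged 0.272 ± 0.114 CPM on SO, 0.490 ± 0.196 on PF and 0.529 ± 0.303 on LO, and these groups overlapped too.

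Tnf, which encodes the cytokine TNF-α, and Casp1, which encodes the protease of the inflammasome, also had their lowest mean level on SO at 12 weeks. Tnf measured 0.168, 0.185, 0.362, 0.276 and 0.291 CPM in SO mice 1 to 5 at 12 weeks, against 1.01, 0.560, 0.245, 0.442 and 0.347 CPM on PF. Its LO mice had 0.640, 0.474, 0.252, 1.22 and 0.608 CPM. The groups overlapped, with 3 of 5 PF mice and 4 of 5 LO mice above every SO mouse. Casp1 measured 0.805, 0.954, 1.19, 0.735 and 0.843 CPM on SO and 1.61, 1.90, 2.03, 1.52 and 0.723 CPM on PF, where mouse 5 lay under every SO mouse and the other 4 stood above all of them. On LO, Casp1 was at 1.28, 0.632, 0.683, 1.80 and 1.15 CPM and spanned the SO range. The log2 fold change of PF over SO was 1.03 (SE 0.436, adjusted p 0.532) for Tnf and 0.78 (SE 0.310, adjusted p 0.463) for Casp1.

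Counted over the genes, PF against SO at 12 weeks gave 0 of 9 genes past an adjusted p of 0.05 in edgeR, as for 0% of the 15873 genes tested. At an unadjusted p under 0.05, 4 of 9 (Il1b, Il1rn, Tnf and Casp1) were higher on PF, against 6.14% of all genes. DESeq2 called 1 of 9, Il1b, and 1.31% of all genes. All 9 had a higher fitted level on PF, with a median log2 fold change of 0.81 against −0.01 over all genes, but Il33 was below 0 without PF mouse 3 (−0.046), SO mouse 1 (−0.012) or SO mouse 5 (−0.0059). Without PF mouse 5, the test called 131 genes in all and 0 of the 9.

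Against SO, LO at 12 weeks had a higher fitted level in 8 of 9 genes, and in 7 without LO mouse 5 or SO mouse 5, where Il18 was at −0.012 and −0.038. In edgeR 0 of 9 genes were called, as for 0% of all genes, and DESeq2 called 0 of 9 and 0% of all genes. At an unadjusted p under 0.05, 5 of 9 were higher on LO, against 2.52% of all genes: Il1b, Tnf (log2 fold change 1.32, SE 0.432), Il1a (0.95, SE 0.434), Cd14 (0.24, SE 0.111) and Il1rn (1.82, SE 0.851). The adjusted p of each was 0.999, with 5 of 5 LO mice above the SO mean for Il1b and Cd14, 4 of 5 for Tnf and Il1a, and 3 of 5 for Il1rn. Without LO mouse 4 the value of Il1rn was 0.90. The median log2 fold change was 0.68. PF against LO at 12 weeks gave 0 of 9 genes in edgeR (0% of all genes), 0 of 9 at an unadjusted p under 0.05 (9.24%) and 0 of 9 by DESeq2 (0.522%). The comparisons of PF and LO with SO share the SO mice.

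At 32 weeks SO no longer had the lowest mean level of Il1b, Il1rn or Tnf. PF against SO gave 0 of 9 genes in edgeR (0% of 16218 genes tested), 0 of 9 at an unadjusted p under 0.05 (10.8%) and 0 of 9 by DESeq2 (0.726%). Without PF mouse 2, the test called 1 gene in all and 0 of the 9. LO against SO gave 0 of 9 in edgeR (0%), 0 of 9 at an unadjusted p under 0.05 (3.48%) and 0 of 9 by DESeq2 (0.0234%). Il1rn came nearest for PF against SO, with −1.41 in log2 fold change (SE 0.664, adjusted p 0.463) and 5 of 5 PF mice below the SO mean, and with −0.76 without SO mouse 5. Il1rn at 32 weeks was 2.27, 1.55, 1.46, 3.54 and 8.56 CPM on SO, 1.05, 2.33, 0.376, 0.398 and 2.23 CPM on PF and 3.53, 1.82, 0.643, 0.460 and 2.05 CPM on LO. The groups overlapped, and SO mouse 5 was the highest of all 30 mice.

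Between PF and LO at 32 weeks the smallest p belonged to Il33, whose product signals to innate lymphoid cells and mast cells. Its level was 42.3, 54.4, 39.2, 33.1 and 45.2 CPM in PF mice 1 to 5 and 57.2, 52.1, 69.0, 47.2 and 73.1 CPM in LO mice. All 5 PF mice lay below the LO mean and 4 of them below every LO mouse, while PF mouse 2 lay inside the LO range. The log2 fold change was −0.47 (SE 0.163) with an adjusted p of 0.451. By edgeR 0 of 9 genes were called (0% of all genes), 1 of 9 was lower at an unadjusted p under 0.05 (4.12%), and DESeq2 called 0 of 9 (0.585%). The plot of diet differences shows how the 12-week and 32-week values lie for each gene.

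**Figure D2:**
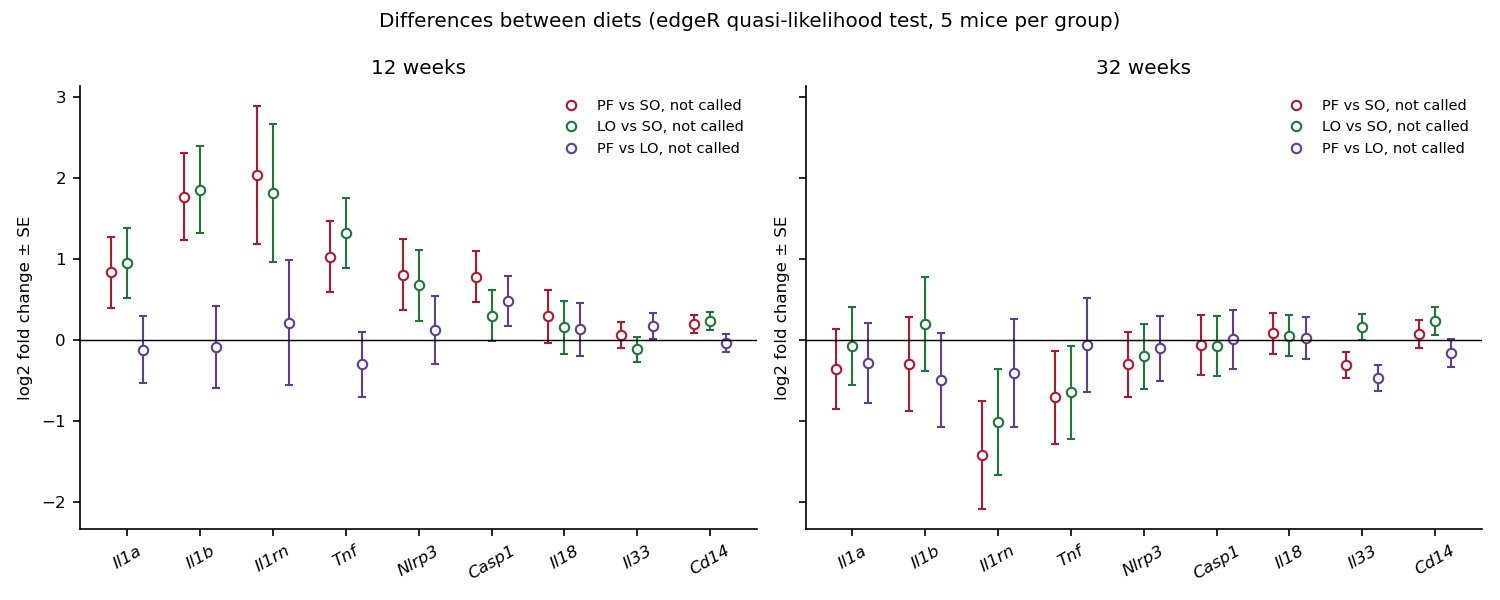
Log2 fold change (points) with its standard error (bars) for 9 genes in the 3 diet comparisons at 12 and at 32 weeks, 5 mice per group. At 12 weeks all 9 genes lie above 0 for PF against SO, with Il1rn and Il1b farthest, and at 32 weeks Il1rn lies farthest below 0 for PF against SO.

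Il1rn, Tnf and Casp1 rose from 12 to 32 weeks on SO, and for these genes and Nlrp3 every 32-week mouse was above every 12-week mouse. The edgeR test called 3 of 9 genes, all higher, against 5.25% of 16605 genes called higher, and groups without overlap were found for 4 of 10 genes against 5.13%. DESeq2 called 4 of 9, the same 3 and Il1b, against 8.03% of all genes. All 9 had a higher fitted level at 32 weeks, with a median log2 fold change of 1.23 against −0.00 over all genes. Without SO 32-week mouse 4 the count was 0 of 9, and without SO 12-week mouse 5 it was 1 of 9. The time points were separate sets of mice, so any other difference between the sets cannot be told apart from time. The SO mice of 12 weeks also enter the 12-week diet comparisons with SO and the interactions with SO, so these results are not independent.

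Il1rn showed the widest gap on SO, from 0.326 ± 0.174 CPM at 12 weeks to 3.47 ± 2.96 CPM at 32 weeks. The lowest 32-week mouse, at 1.46 CPM, stood above the highest 12-week mouse, at 0.527 CPM. Il1rn rose by 3.41 in log2 fold change (SE 0.848), with 5 of 5 mice above all 12-week mice and an adjusted p of 0.0165 in the edgeR quasi-likelihood test with Benjamini-Hochberg adjustment, and 0.000440 to 0.0537 over all alternatives. The call was lost without SO 12-week mouse 5 (adjusted p 0.0537), SO 32-week mouse 4 (0.0503) or SO 32-week mouse 5 (0.0501). Without SO 32-week mouse 5 the log2 fold change was 2.74, and without mouse 4 it was 3.40.

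The cytokine genes Tnf and Il1b were both higher on SO at 32 weeks, and Tnf passed the test. Tnf measured 0.714, 0.684, 0.393, 1.95 and 1.97 CPM in SO mice 1 to 5 at 32 weeks, against at most 0.362 CPM at 12 weeks. Mice 4 and 5 were the high ones, and mouse 3 lay just above the 12-week range. Tnf rose by 2.14 in log2 fold change (SE 0.556, adjusted p 0.0210, range over all alternatives 0.00386 to 0.0890), with 5 of 5 mice above all 12-week mice. Leaving out 1 SO mouse ended the call in 6 cases, with an adjusted p of 0.0549, 0.0504, 0.0528 and 0.0516 without 12-week mice 1, 2, 4 and 5, and of 0.0890 and 0.0562 without 32-week mice 4 and 5. Il1b measured 1.65, 5.30, 6.95, 2.31 and 1.77 CPM in SO mice 1 to 5 at 32 weeks. Mice 2 and 3 were high, and mice 1 and 5 lay below 12-week mouse 3, at 2.21 CPM, so that the groups overlapped. The log2 fold change was 1.96 (SE 0.607) with an adjusted p of 0.0507, 5 of 5 mice above the 12-week mean, and a range of 0.0121 to 0.160 over all alternatives. Il1b passed with DESeq2 (0.0121) and without 1 of 6 mice, at 0.0491 without LO 12-week mouse 4, 0.0276 (log2 fold change 2.55) without SO 12-week mouse 3, 0.0332 without LO 32-week mouse 4, 0.0481 without PF 32-week mouse 1, 0.0304 without SO 32-week mouse 1 and 0.0450 without SO 32-week mouse 5.

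The inflammasome genes Nlrp3, which encodes the sensor, and Casp1 also separated by time on SO. Casp1 measured 1.20, 2.41, 2.55, 4.82 and 2.38 CPM in SO mice 1 to 5 at 32 weeks, and its lowest value was just above the highest 12-week value of 1.19 CPM. Mouse 4 was the highest of all 30 mice for Casp1. Casp1 rose by 1.56 in log2 fold change (SE 0.359, adjusted p 0.0104, range over all alternatives 0.000981 to 0.0680), with 5 of 5 mice above all 12-week mice, and the call was lost without SO 32-week mouse 4 (0.0680). Nlrp3 measured 0.369, 0.308, 0.329, 0.306 and 0.116 CPM at 12 weeks and 0.422, 0.744, 0.589, 1.14 and 0.471 CPM at 32 weeks on SO. The groups did not overlap, yet the log2 fold change of 1.23 (SE 0.440) had an adjusted p of 0.0926, and 0.0603 to 0.315 over all alternatives. Il18, whose product is a substrate of caspase-1, averaged 2.02 ± 0.725 CPM at 12 weeks and 3.47 ± 0.745 CPM at 32 weeks on SO, 0.78 in log2 fold change (SE 0.306, adjusted p 0.130) with 5 of 5 mice above the 12-week mean.

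On LO, Casp1 came nearest to passing between the time points. It measured 2.54, 2.12, 3.89, 1.07 and 3.02 CPM in LO mice 1 to 5 at 32 weeks. Mice 1, 2, 3 and 5 stood above every 12-week LO mouse, and mouse 4 lay among them. The log2 fold change was 1.18 (SE 0.353, adjusted p 0.0618, range over all alternatives 0.0200 to 0.214). Casp1 passed with DESeq2 (0.0230) and without LO 12-week mouse 4 (0.0314), LO 32-week mouse 4 (0.0200), SO 32-week mouse 1 (0.0471) or SO 32-week mouse 4 (0.0477). Il33 averaged 44.0 ± 6.03 CPM at 12 weeks and 59.7 ± 11.03 CPM at 32 weeks on LO, 0.44 in log2 fold change (SE 0.166, adjusted p 0.126), with 5 of 5 mice above the 12-week mean. In edgeR 0 of 9 genes were called on LO, against 2.7% of all genes, 3 of 9 were higher at an unadjusted p under 0.05 (Casp1, Il18 and Il33), against 11.4%, and DESeq2 called 1 of 9, Casp1, against 6.56%.

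On PF, the levels at 12 and 32 weeks lay together for most of the genes. Il1b averaged 3.14 ± 1.53 CPM at 12 weeks and 2.92 ± 1.75 CPM at 32 weeks, and Il1rn averaged 1.33 ± 1.52 and 1.28 ± 0.956 CPM. The log2 fold change of Il1rn was −0.06, and 0.94 without PF 12-week mouse 1. Casp1 measured 2.35, 3.80, 2.63, 1.34 and 2.52 CPM in PF mice 1 to 5 at 32 weeks, with 4 of 5 mice above every 12-week PF mouse and mouse 4 within their range. Its log2 fold change was 0.70 (SE 0.348, adjusted p 0.500). In edgeR 0 of 9 genes were called on PF (0.0301% of all genes), 0 of 9 at an unadjusted p under 0.05 (10.2%) and 0 of 9 by DESeq2 (0.295%).

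Whether the diets differed in these changes was tested by interaction, as the diet difference at 32 weeks minus that at 12 weeks. For PF against SO the fitted value was below 0 for 9 of 9 genes, with −3.47 (SE 1.13, adjusted p 0.255) for Il1rn, −2.07 (SE 0.830, adjusted p 0.403) for Il1b, −1.75 (SE 0.761, adjusted p 0.442) for Tnf and −0.86 (adjusted p 0.631) for Casp1. In edgeR 0 of 9 passed (0% of all genes), 3 of 9 were lower at an unadjusted p under 0.05 (6.65%), and DESeq2 called 0 of 9 (0.224%). Without LO 12-week mouse 4 the test called 4 genes in all, without PF 12-week mouse 5 it called 3, and 0 of the 9 were among them. The value of Il1rn was −2.47 without PF 12-week mouse 1 and −2.78 without SO 32-week mouse 5, and that of Il1b was −2.655 without SO 12-week mouse 3. For LO against SO, 0 of 9 passed (0%), 2 of 9 were lower at an unadjusted p under 0.05 (2.23%) and DESeq2 called 0 of 9 (0%). These were Tnf at −1.99 (SE 0.757) and Il1rn at −2.84 (SE 1.12), each with an adjusted p of 0.9998, and Il1rn was at −1.92 without LO 12-week mouse 4 and −2.16 without SO 32-week mouse 5. For PF against LO, 0 of 9 passed (0%), 1 of 9, Il33 at −0.65 (SE 0.234, adjusted p 0.525), was lower at an unadjusted p under 0.05 (4.19%), and DESeq2 called 0 of 9 (0.0702%). A difference between diets in the change over time was therefore not shown for Il1rn, Tnf or Casp1.

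**Figure D3:**
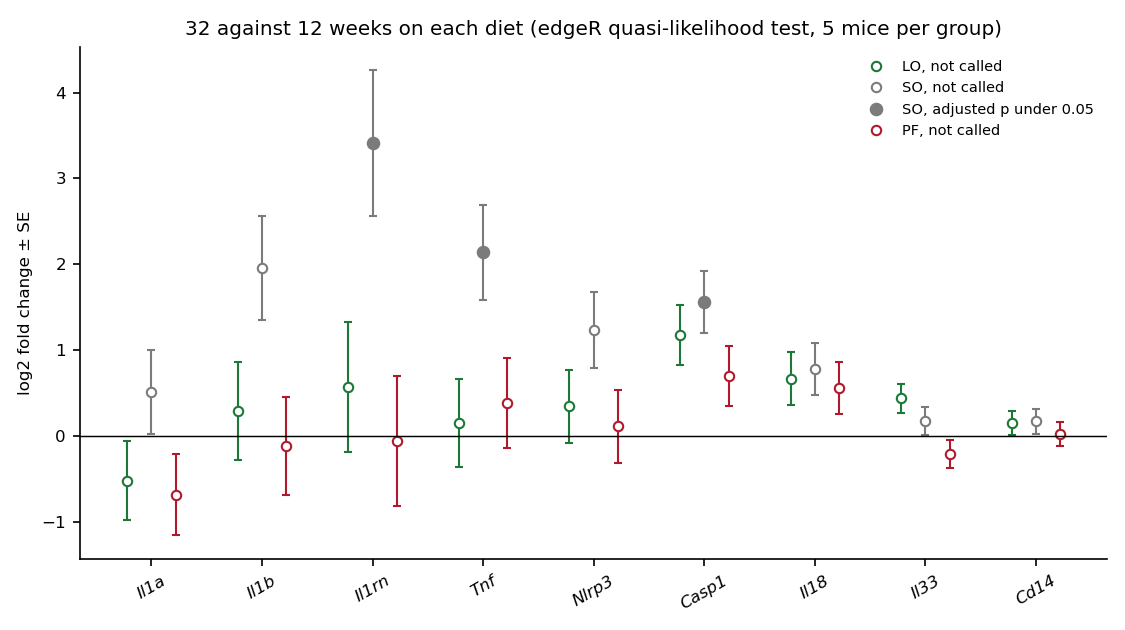
Log2 fold change (points) from 12 to 32 weeks with its standard error (bars) for 9 genes on LO, SO and PF, 5 mice per group. On SO all 9 points lie above 0 and Il1rn, Tnf and Casp1 passed the edgeR test, while on LO and PF none did.

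Cd14 varied little in any comparison. Its group means ran from 8.15 ± 0.766 CPM on SO at 12 weeks to 10.7 ± 2.37 CPM on LO at 32 weeks, and it passed the adjusted test in 0 comparisons by edgeR or DESeq2, with 1, LO against SO at 12 weeks, at an unadjusted p under 0.05. Il6, whose product drives the acute phase response, had group means from 0.00582 ± 0.0130 CPM on SO at 12 weeks to 0.0957 ± 0.0762 CPM on PF at 32 weeks, all with mice at 0 counts or 1 count. On PF 4 of 5 mice of 32 weeks lay above all mice of 12 weeks, with at most 6 counts in any mouse and no test.

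The rest of the pathway was followed in 110 further genes in 9 lists, of which 93 passed the filter over all mice. Between 12 and 32 weeks on SO, 22 of 93 rose and 0 fell, against 5.25% and 1.22% of all genes, with a median log2 fold change of 0.18 against −0.00 over all genes. By list these were 7 of 18 inflammasome genes, 5 of 13 genes of the TNF pathway, 3 of 7 genes of the CD14 and TLR4 complex, 3 of 12 NF-κB subunits and inhibitors, 2 of 9 IL-1 family receptors and decoys, 1 of 14 genes of the IL-6 family pathway and 1 of 8 other cytokines. Of 11 genes of IL-1 receptor and Toll-like receptor signalling 0 passed, and 0 had an unadjusted p under 0.05, and the same was true of the 1 further IL-1 family ligand tested, Il36g. DESeq2 called 27 of the pathway genes, against 8.03% of all genes. In the interaction tests edgeR called 0 of 93 for each pair of diets, with 28 of 93 lower at an unadjusted p under 0.05 for PF against SO (6.65% of all genes), 8 of 93 lower for LO against SO (2.23%), and 10 lower and 2 higher for PF against LO (4.19% and 3.61%), and DESeq2 also called 0.

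Among the inflammasome genes on SO, those that rose included sensors, a second inflammatory caspase and the pore-forming protein. Aim2, the DNA sensor, rose by 1.71 in log2 fold change (SE 0.332, adjusted p 0.00427), and Nlrp1b, a sensor of pathogen proteases, by 1.31 (SE 0.293, adjusted p 0.00952). Casp4, the caspase that binds lipopolysaccharide in the cytosol, rose by 1.48 (SE 0.308, adjusted p 0.00674), and Gsdmd, the gene of gasdermin D, by 0.59 (SE 0.126, adjusted p 0.00749). For these 4 genes, 5 of 5 mice were above all 12-week SO mice, and the call held under all 34 alternatives, where the adjusted p reached at most 0.0291 for Aim2, 0.0482 for Nlrp1b, 0.0387 for Casp4 and 0.0385 for Gsdmd. Pstpip1 (0.83, adjusted p 0.00948), Nlrc4 (1.51, adjusted p 0.0326) and Mefv (2.66, adjusted p 0.0352), which encode a pyrin-binding adaptor, the sensor partnered by NAIP proteins and pyrin, also rose. Their adjusted p ranged over all alternatives from 0.000868 to 0.0563, from 0.0128 to 0.146 and from 0.0113 to 0.128, with 5, 4 and 4 of 5 mice above all 12-week mice. Pstpip1 lost the call without SO 32-week mouse 4 (0.0563). Nlrc4 and Mefv lost it without any 1 of 12-week mice 1, 4 and 5 and 32-week mice 2, 3 and 4, and also without 12-week mouse 2 (Nlrc4, 0.0701) or without 12-week mouse 3 (Mefv, 0.0790) or 32-week mouse 5 (Mefv, 0.0647).

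Of 9 IL-1 family receptors and decoys, Il18rap and Il18bp rose on SO, and a TNF receptor gene and a receptor gene pair of the TLR4 list did too. Tnfrsf1b, the second TNF receptor, rose by 0.97 in log2 fold change (SE 0.158, adjusted p 0.00266), and Il18rap, a chain of the IL-18 receptor, by 2.23 (SE 0.462, adjusted p 0.00667). Cd180 and Ly86, which encode a TLR4-like receptor of B cells and myeloid cells and its partner, rose by 1.94 (SE 0.347, adjusted p 0.00280) and 1.35 (SE 0.280, adjusted p 0.00681). Each of these 4 genes had 5 of 5 mice above all 12-week SO mice and passed under all 34 alternatives, with an adjusted p of at most 0.0150 for Tnfrsf1b, 0.0422 for Il18rap, 0.0177 for Cd180 and 0.0422 for Ly86. Il18bp, the gene of the soluble IL-18 decoy, rose by 0.78 (SE 0.176, adjusted p 0.00952, range 0.000884 to 0.0573), with 5 of 5 mice above all 12-week mice, and lost the call without SO 32-week mouse 4 (0.0573).

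The other 10 genes that rose on SO were Tnfaip2 (log2 fold change 1.13, adjusted p 0.0134), Ltb (2.04, 0.0222), Tnfaip3 (0.59, 0.0287) and Adam17 (0.29, 0.0342) of the TNF pathway, Osm (2.37, 0.0141) of the IL-6 family, the adaptor gene Ticam2 (1.10, 0.0450), and Rel (1.12, 0.0292), Nfkbie (0.93, 0.0185) and Nfkbiz (0.65, 0.0182) of the NF-κB list. The cytokine gene Il16 (1.17, 0.0234) completed the 22. Ltb encodes lymphotoxin β, Adam17 the protease that sheds TNF from the membrane, Tnfaip3 an inhibitor of NF-κB, and Osm the cytokine oncostatin M. For 6 of them 5 of 5 mice were above all 12-week mice, and for Tnfaip3, Osm, Ticam2 and Il16 it was 4 of 5. Over all alternatives, the adjusted p of these 10 genes lay between 0.00228 and 0.188. Of the 22, 14 lost the call under at least 1 alternative. Without SO 32-week mouse 4, 13 lost it and the count was 9. Without SO 12-week mouse 4 or mouse 5, 9 lost it and the count was 13. Leaving out 12-week mouse 1, 2 or 3 took 6, 4 or 3 calls, and leaving out 32-week mouse 2, 3 or 5 took 6, 5 or 4. Ticam2, nearest to the threshold, also lost its call without LO 12-week mouse 1, 3, 4 or 5, PF 12-week mouse 2 or 4, LO 32-week mouse 2 or 5 or PF 32-week mouse 4 or 5, and Adam17 without LO 12-week mouse 5 or PF 12-week mouse 2. With no filter on low counts, Ticam2 (adjusted p 0.0750) and Adam17 (0.0727) did not pass. In log2 fold change Osm was at 3.14 without SO 12-week mouse 3 and Ltb at 1.31 without SO 32-week mouse 4.

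On LO, 3 of 93 rose and 1 fell between the time points, against 1.74% and 0.958% of all genes. Tnfaip2 rose by 1.22 in log2 fold change (adjusted p 0.0179), Ticam2 by 1.34 (adjusted p 0.0280) and Lbp, which encodes the lipopolysaccharide-binding protein, by 0.79 (adjusted p 0.0331), and Ticam1, the gene of the TLR adaptor TRIF, fell by 0.52 (adjusted p 0.0201). For Tnfaip2, Ticam2 and Ticam1, 5 of 5 mice lay beyond all 12-week mice, and for Lbp 4 of 5 did. Their adjusted p ran over all alternatives from 0.00118 to 0.0807 for Tnfaip2, from 0.00953 to 0.113 for Ticam2, from 0.00590 to 0.105 for Lbp and from 0.00264 to 0.0807 for Ticam1. The call of Ticam2 was also lost without LO 12-week mouse 1 (0.0574) and that of Lbp without LO 12-week mouse 5 (0.0526). The count was 0 without mouse 3 of LO at 12 or at 32 weeks, 1 without LO 12-week mouse 2 or LO 32-week mouse 5, 2 without LO 32-week mouse 1, and 10 without mouse 4 of LO at 12 or at 32 weeks. On PF, edgeR called 0 of 93, with 1 higher and 5 lower at an unadjusted p under 0.05, against 4.98% and 5.23% of all genes, and DESeq2 called 0.

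Between diets, edgeR called 0 pathway genes in each of the 6 comparisons, among 89 tested at 12 weeks and 92 at 32 weeks. The genes named for each comparison had the smallest unadjusted p of their list. For PF against SO at 12 weeks, 21 were higher and 1 lower at an unadjusted p under 0.05, against 6.14% and 1.86% of all genes. DESeq2 called 6, against 1.31% of all genes. Without PF mouse 5 edgeR called 6, among 131 genes in all. Ly86 (log2 fold change 1.19, adjusted p 0.138), Tnfaip2 (0.72, 0.138), Il18rap (1.67, 0.142), Aim2 (1.12, 0.167) and Rel (0.69, 0.466) had 5 of 5 PF mice above all SO mice, and Osm (2.27, 0.180) and Csf1 (0.37, 0.332) had 4 of 5. Osm was at 3.05 without SO mouse 3. Without PF mouse 5, Ly86 and Tnfaip2 passed at an adjusted p of 0.0252, Il18rap at 0.0368 and Aim2 at 0.0401, with ranges over all alternatives of 0.00250 to 0.397, 0.00383 to 0.397, 0.0218 to 0.397 and 0.0291 to 0.452. Ly86 had group means of 7.90 ± 2.42 CPM on PF and 3.49 ± 0.213 CPM on SO. Map3k7 (−0.10, adjusted p 0.946) and Il36g (−0.09, 0.9999) were not past an unadjusted p of 0.05, with 5 and 3 of 5 PF mice below the SO mean.

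For LO against SO at 12 weeks, 10 were higher and 2 lower at an unadjusted p under 0.05, against 2.52% and 1.76% of all genes, DESeq2 called 0, and each adjusted p was 0.999. Cflar, the gene of an inhibitor of caspase-8 (log2 fold change 0.21), Ikbkb (0.12) and Cd180 (0.68) had 5 of 5 LO mice above all SO mice, Aim2 (0.97), Il18rap (1.25) and Tirap, a TLR adaptor gene (0.31), had 4 of 5, and Osm (1.5, and 2.28 without SO mouse 3) had 4 of 5 above the SO mean. Il36g (−0.62) and Il15 (−0.44), the latter not past an unadjusted p of 0.05, had 5 of 5 LO mice below the SO mean. For PF against LO at 12 weeks, 7 were higher and 4 lower at an unadjusted p under 0.05, against 4.31% and 4.93% of all genes, and DESeq2 called 2 (0.522% of all genes). Cflar (−0.31, adjusted p 0.241), Tirap (−0.38, 0.348) and Ikbkb (−0.14, 0.440) had 5 of 5 PF mice below all LO mice. Ly86 (0.79, adjusted p 0.413), Il7 (0.41, 0.417), Il1r1 (0.35, 0.480) and Pycard (0.21, 0.495) had 5 of 5 PF mice above the LO mean, while Il36g (0.54, 0.578) and Il6ra (−0.22, 0.668), not past an unadjusted p of 0.05, had 4 of 5 above and 3 of 5 below it.

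At 32 weeks DESeq2 called 0 pathway genes for each pair of diets. For PF against SO, 2 were higher and 6 lower at an unadjusted p under 0.05, against 5.71% and 5.07% of all genes. Stat3, the gene of the transcription factor downstream of IL-6 (log2 fold change −0.22, adjusted p 0.339), P2rx7 (−0.26, 0.349) and Ikbkb (−0.16, 0.390) had 5 of 5 PF mice below all SO mice, and Tnfrsf1b (−0.41, 0.448) had 4 of 5. In the other direction Il1rl1, the gene of the IL-33 receptor (0.86, adjusted p 0.380), had 5 of 5 PF mice above all SO mice and Tslp (0.76, 0.362) had 4 of 5. Not past an unadjusted p of 0.05 were Irak2 (−0.16, adjusted p 0.548, 5 of 5 PF mice below the SO mean), Ly96 (0.17, 0.548, 4 of 5 above it) and Il36g (0.17, 0.882, 4 of 5 above it). For PF against LO, 1 was higher and 6 lower, against 4.48% and 4.12% of all genes. Stat3 (−0.22, adjusted p 0.354), P2rx7 (−0.25, 0.397) and Nfkbiz (−0.36, 0.543) had 4 of 5 PF mice below all LO mice, Csf1 (−0.32, 0.554) had 4 of 5 below the LO mean and Tollip (0.14, 0.580) had 4 of 5 above it. Traf2 (−0.19, 0.589), Il1rl1 (0.53, 0.638), Ly96 (0.17, 0.645) and Il36g (0.18, 0.908) were not past an unadjusted p of 0.05, with 5 of 5 PF mice below the LO mean for Traf2 and 5, 4 and 4 of 5 above it for the others. For LO against SO, 0 were past it in either direction, against 1.5% and 1.99% of all genes, and each adjusted p was 0.9997. The list genes were Il1r1 (−0.13), Ltb (−0.88, and −0.16 without SO mouse 4) and Ikbkb (−0.06) with 5 of 5 LO mice below the SO mean, Nek7 (−0.20), Jak2 (−0.12), Irak2 (−0.13) and Cd180 (−0.40) with 4 of 5, Il36g (−0.01) with 2 of 5, and Tslp (0.45) with 5 of 5 above it.

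**Figure D4:**
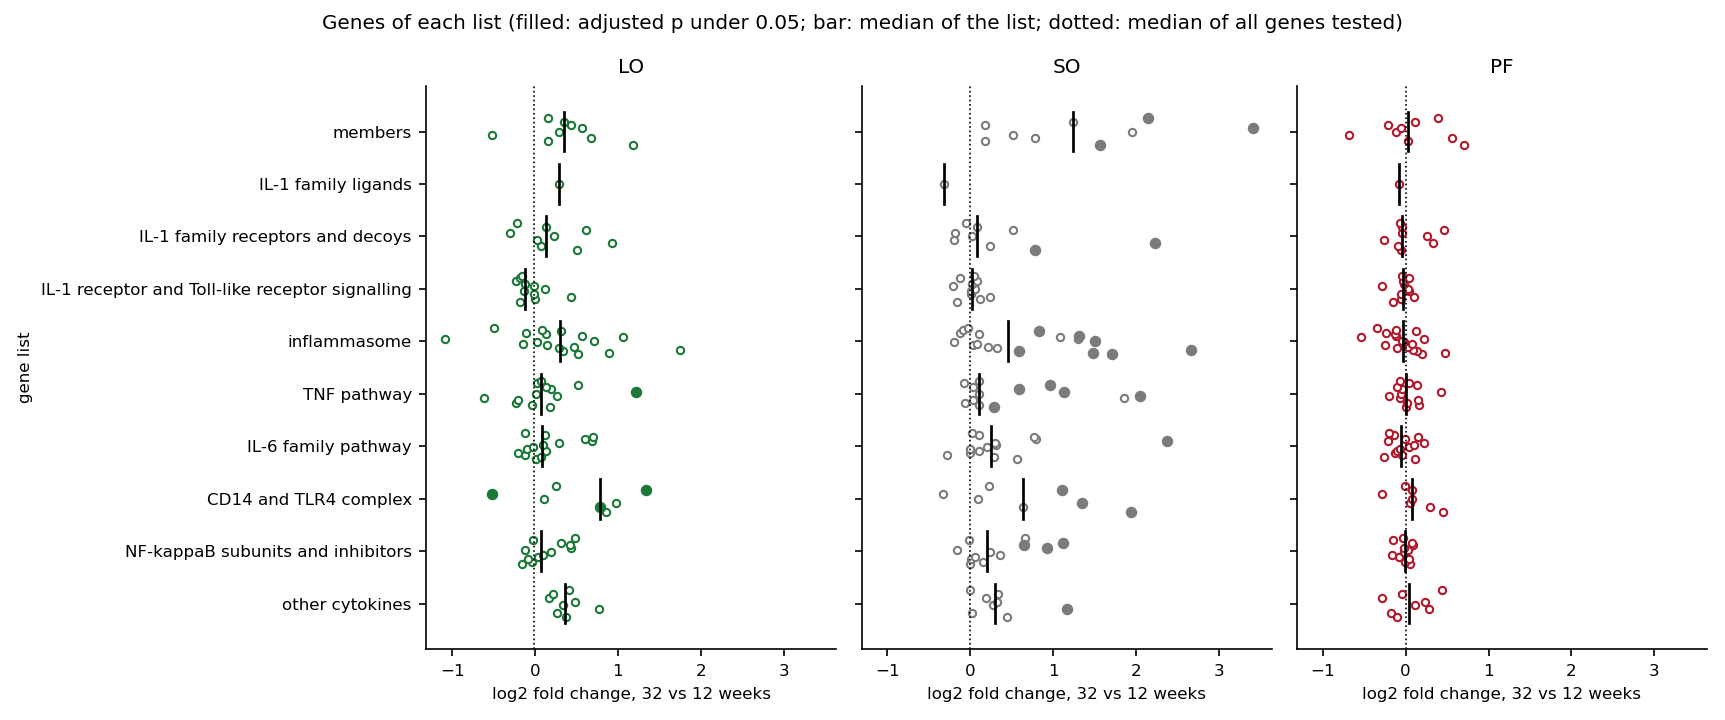
Log2 fold change of each tested gene (points) of the members and the 9 further pathway lists between 12 and 32 weeks on LO, SO and PF, with genes past the edgeR test marked. On SO 22 of 93 further genes passed, all higher, against 4 of 93 on LO and 0 of 93 on PF. The members Il1rn, Tnf and Casp1 are also marked on SO.

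Of the 110 further genes, 17 were too low to test. Il36a, Il36b and Il1f10 had 0 counts in all mice, and the T helper and interferon genes were close to the floor, with Il4 at 57, Il5 at 60, Il13 at 5, Il17a at 1, Ifng at 60 and Ifnb1 at 5 counts over 30 libraries. The anti-inflammatory cytokine gene Il10 had 143 counts, and Il12b, which encodes a subunit of IL-12 and IL-23, had 154.

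Leukocyte markers also differed between the time points on SO. All 13 macrophage or monocyte markers were counted, and Lyz2, the lysozyme gene, was their most abundant at 129 CPM and 36.1% of the sum. Their summed level was 155, 193, 185, 206 and 222 CPM in SO mice 1 to 5 at 12 weeks and 228, 370, 545, 481 and 465 CPM at 32 weeks. Every 32-week SO mouse was thus above every 12-week one, with mouse 1 the nearest. On PF the sums were 470, 347, 447, 295 and 208 CPM at 12 weeks and 440, 588, 260, 266 and 480 CPM at 32 weeks. On LO they were 314, 147, 216, 256 and 304 CPM at 12 weeks and 568, 421, 891, 203 and 562 CPM at 32 weeks. At 12 weeks 4 of 5 PF mice were above every SO mouse, and on LO at 32 weeks mouse 4 was low and the others were above all 12-week mice.

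Of the macrophage markers, 6 of 13 rose on SO between the time points (median log2 fold change 1.06), against 5.25% of all genes. The count was 2 without SO 32-week mouse 4 or SO 12-week mouse 1, 3 without SO 12-week mouse 2, 4 or 5 or SO 32-week mouse 3, and 10 without SO 32-week mouse 1. On LO edgeR called 0 of 13, with 13 of 13 higher at an unadjusted p under 0.05 (11.4% of all genes) and 10 called by DESeq2 (6.56% of all genes). Without LO 32-week mouse 4, edgeR called 12, among 1043 genes in all. The LO count also reached 1 to 3 without 1 of 7 other mice, namely LO 12-week mouse 4, PF 12-week mouse 5, SO 12-week mouse 1, PF 32-week mice 1 and 2 and SO 32-week mice 1 and 3. On PF edgeR and DESeq2 called 0 of 13, with 0 at an unadjusted p under 0.05. The part of these markers in the changes of Il1rn, Tnf, Casp1 and the pathway genes was not tested.

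The lymphocyte markers also rose on SO, with the highest sums in a single mouse at 32 weeks. All 6 T cell markers were counted, with Cd3g the most abundant at 2.05 CPM, and they summed to 4.12, 2.46, 3.88, 2.54 and 3.17 CPM in SO mice 1 to 5 at 12 weeks and 9.31, 9.37, 6.20, 34.8 and 12.1 CPM at 32 weeks. All 5 B cell markers were counted, with Cd79a the most abundant at 4.35 CPM, and they summed to 3.15, 1.75, 4.12, 1.53 and 4.83 CPM at 12 weeks and 5.13, 20.6, 23.4, 85.0 and 4.24 CPM at 32 weeks. SO 32-week mouse 4 was the highest for both. T cell markers rose in 6 of 6 (median log2 fold change 2.28) and B cell markers in 4 of 5 (median 3.01), against 5.25% of all genes. Without SO 32-week mouse 4 these counts were 3 and 0. For T cells the count was also 3 without SO 12-week mouse 4, and for B cells it was 1 without SO 12-week mouse 1, 0 without mouse 2 or 4, and 2 without mouse 3 or 5. The part of the lymphocyte markers was not tested.

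Between diets and in the interactions edgeR called 0 markers of any list. For PF against SO at 12 weeks, 6.14% of all genes were higher and 1.86% lower at an unadjusted p under 0.05. Of the markers, 2 of 2 neutrophil (median log2 fold change 1.49), 3 of 5 endothelial (0.31) and 1 of 5 fibroblast markers (0.35) were higher. Of 3 urothelial markers 1 was lower, and DESeq2 called 0 in these lists. Also higher were 12 of 13 macrophage, 4 of 5 dendritic cell, 4 of 6 T cell and 4 of 4 B cell markers, with medians of 0.89, 0.92, 1.16 and 2.31. Of the macrophage, dendritic cell, T cell and B cell markers DESeq2 called 7, 2, 1 and 0, against 1.31% of all genes. Without PF mouse 5 edgeR called 4, 1, 1 and 0 of them, among 131 genes in all. In the interaction of PF with SO, 6 of 13 macrophage, 3 of 5 dendritic cell, 6 of 6 T cell and 5 of 5 B cell markers were lower at an unadjusted p under 0.05, against 6.65% of all genes, with medians of −1.02, −1.32, −1.85 and −3.04. There DESeq2 called 1, 1, 1 and 0 (0.224% of all genes). Without PF 12-week mouse 5, edgeR called 1 macrophage marker and 3 genes in all. In the same interaction 2 of 4 basal and 1 of 5 endothelial markers were lower, and 1 of 10 luminal and 1 of 5 adipocyte markers higher (2.84%). In the interaction of LO with SO, 3 of 6 T cell (median −1.62), 1 of 5 B cell (−2.05) and 1 of 5 dendritic cell markers (−0.79) were lower, against 2.23% of all genes. Of 13 macrophage markers 1 was higher there (1.1%), and DESeq2 called 0 in these lists. For PF against SO at 32 weeks, 4 of 4 mast cell markers were higher at an unadjusted p under 0.05 (median 1.21), against 5.71% of all genes. So were 3 of 5 adipocyte (median 1.84) and 3 of 10 luminal markers (median 0.20). At the same threshold 1 of 13 macrophage, 1 of 5 dendritic cell and 1 of 5 smooth muscle markers were lower (5.07%). DESeq2 called 1 mast cell marker, against 0.726% of all genes, and 0 adipocyte or luminal markers. For PF against LO, 5 of 13 macrophage markers were higher at 12 weeks (4.31% of all genes) and 3 of 4 basal markers lower at 32 weeks (4.12%), and 6 of 13 and 3 of 4 were lower in the interaction (4.19%), all at an unadjusted p under 0.05. Also past it at 12 weeks and higher were 2 of 5 dendritic cell markers. So was 1 marker each of the neutrophil, T cell, luminal, fibroblast and endothelial lists, while 1 urothelial marker was lower (4.93%). At 32 weeks 2 of 10 luminal markers were higher (4.48%), and 1 macrophage, 1 smooth muscle and 1 urothelial marker lower. In the interaction 2 of 10 luminal markers were higher (3.61%) and 1 of 5 dendritic cell markers lower. Of these DESeq2 called 1, a basal marker at 32 weeks, against 0.585% of all genes. For LO against SO, 1 macrophage and 1 T cell marker were higher at 12 weeks at an unadjusted p under 0.05 (2.52%). At 32 weeks 1 marker each of the macrophage, neutrophil, mast cell, luminal and basal lists was higher (1.5%) and 1 T cell marker lower (1.99%). There DESeq2 called 0 in these lists. The part of these markers in the pathway values of the same comparisons was not tested.

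The remaining lists each gave at most 3 calls between the time points on SO, where 5.25% of all genes were called higher and 1.22% lower. Dendritic cell markers, led by Itgax at 7.66 CPM, rose in 3 of 5 (median log2 fold change 1.28), and 1 of 5 without SO 32-week mouse 4. Neutrophil markers, led by Csf3r at 1.97 CPM, rose in 1 of the 3 that could be tested (median 1.22), and in 0 without SO 12-week mouse 1 or 5 or SO 32-week mouse 3 or 4. Among the neutrophil genes, Ly6g and Elane averaged under 1 count. Basal epithelial markers, led by Krt15 at 55.0 CPM, rose in 2 of 4 on SO and 3 of 4 on LO (1.74% of all genes). The SO count was 0 without SO 32-week mouse 4. It was 1 with no filter on low counts and without 1 of SO 12-week mice 1, 3, 4 and 5 or SO 32-week mice 2, 3 and 5. Endothelial markers, led by Pecam1 at 19.8 CPM, rose in 1 of 5, and in 0 without SO 32-week mouse 4. The mast cell, fibroblast, smooth muscle and adipocyte lists, led by Mcpt4 at 1.99, Dcn at 562, Acta2 at 862 and Cfd at 67.9 CPM, had 0 calls in edgeR and DESeq2 on SO, and only 1 fibroblast marker had an unadjusted p under 0.05. The adipocyte list had a median log2 fold change of −1.22 on SO. Over time on PF, 4 of 4 mast cell markers were higher at an unadjusted p under 0.05 (median 0.96), against 4.98% of all genes. On LO 3 of 4 mast cell (median 0.98) and 2 of 5 fibroblast markers were, against 11.4%. Smooth muscle markers were lower in 1 of 5 on LO and 2 of 5 on PF (9.14% and 5.23%). In these 4 lists edgeR called 0 on LO and PF, and DESeq2 called only 2 fibroblast markers on LO (6.56%). Urothelial markers, led by Upk1a at 376 CPM, fell in 1 of 3.

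Luminal markers fell in 1 of 10 on SO and in 1 of 10 on LO, against 1.22% and 0.958% of all genes, and on PF edgeR and DESeq2 called 0 of 10, with 0 at an unadjusted p under 0.05. Their summed level averaged 278790 CPM at 12 weeks and 157400 CPM at 32 weeks on SO, 245950 and 148890 CPM on LO, and 260600 and 242930 CPM on PF. Sbp alone made up 76.3% of this sum over all mice. The median log2 fold change of the list was −0.20 on SO and −0.07 on LO, with 4 of 10 markers higher on each. On PF it was −0.01, with 5 of 10 higher. The LO call was lost with no filter on low counts. It was also lost without 1 of LO 12-week mice 2 and 3, SO 12-week mice 3 and 4, LO 32-week mice 1, 2, 3 and 5 and SO 32-week mice 2 and 5, and 2 were called without LO 32-week mouse 4. The plot of marker sums gives these levels by mouse, and their part in the results was not tested.

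**Figure D5:**
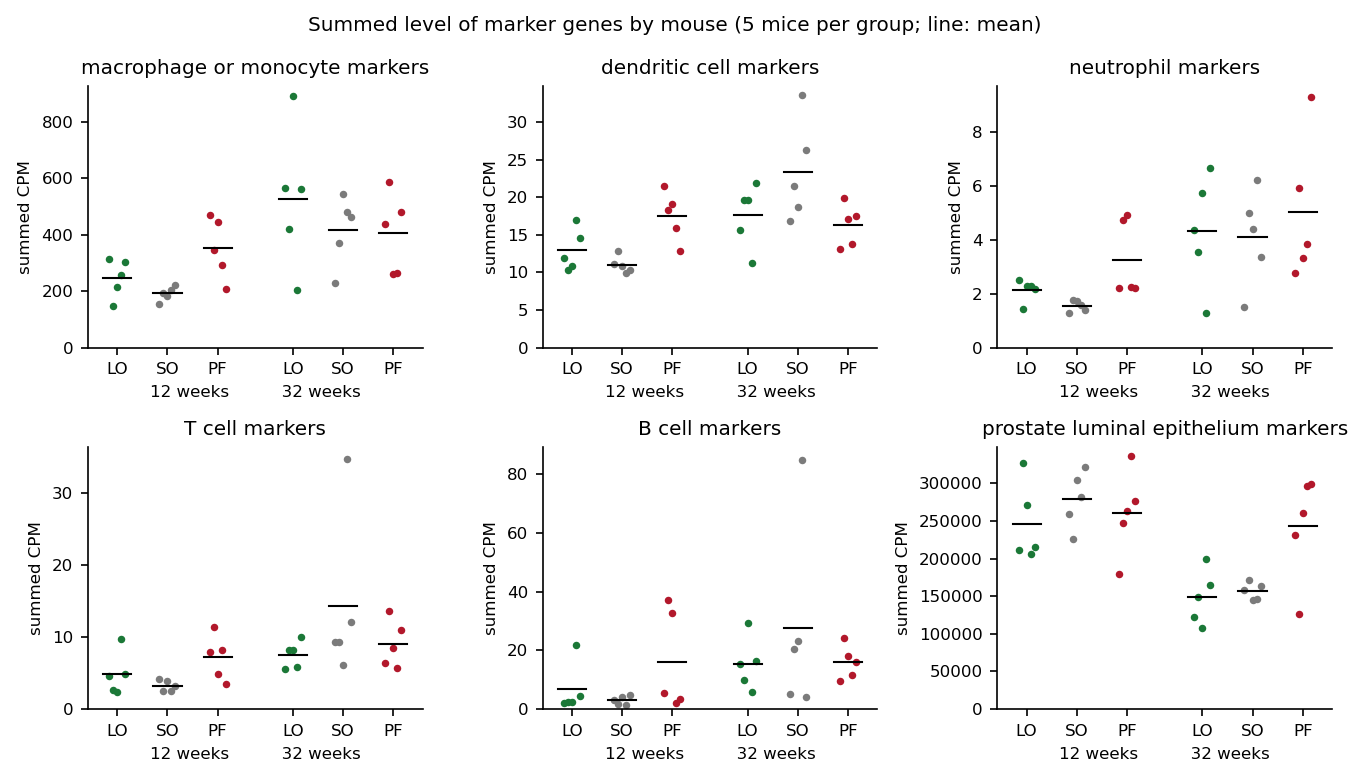
Summed level of marker lists in every mouse (points, CPM, linear axis) by diet and time, with lines at the mean of 5 mice. On SO the macrophage and T cell sums of every 32-week mouse lie above those of every 12-week mouse, and SO 32-week mouse 4 is the highest for T and B cells.

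How many genes peaked in the same mouse differed between the groups. PF 32-week mouse 2 was the highest of its group for 7 of 9 genes, all but Il1b and Cd14, while in the other groups no mouse was the highest for more than 2 (PF at 12 weeks), 3 (LO at 32 weeks) or 4 genes. LO 32-week mouse 4 was the lowest of its group for 8 of 9, against at most 6 for SO 32-week mouse 1 and 4 in the remaining groups. At 12 weeks, LO mouse 4 and SO mouse 3 were each the highest of their group for Il1b, Il1rn, Tnf and Casp1. Over the 15 mice of a time point, which include the 3 diets, the Pearson r of log2 CPM between Il1rn and Tnf was 0.736 at 12 weeks and 0.884 at 32 weeks, and between Nlrp3 and Casp1 0.558 and 0.804. Some pairs kept a similar value, as Il1b and Casp1 with 0.458 and 0.457, and others did not, as Il1b and Tnf had 0.671 at 12 weeks and 0.0167 at 32 weeks, and Il1a and Il1b had 0.801 and 0.264. These values are a description with no test, over mice that share diets and libraries.

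Apart from Ms4a6b, listed for both Casp1 and Nlrp3, the genes most like each member over the mice differed between the members. Casp1 was most like Cd53, Ms4a6b and Hcls1, all expressed in leukocytes, with a mean r of the 2 time points of 0.927, 0.912 and 0.909. Nlrp3 was most like Nlrp1b, Ms4a6b and Mndal, at 0.779, 0.770 and 0.763. Il1rn was most like Lgals3, S100a11 and Clu, at 0.866, 0.851 and 0.849, and Tnf was most like Il1rn, Slc15a3 and Sftpd, at 0.810, 0.802 and 0.800. Il1b was most like Rgs1, Dusp1 and Klrb1b, at 0.869, 0.814 and 0.770, and Il1a like Bhlhe40, Nedd9 and Sox6, at 0.828, 0.734 and 0.709. These neighbours include immediate response genes such as Dusp1, a phosphatase of MAP kinases. Il18 was most like Cyp2j13, Defb1 and Snhg18, at 0.885, 0.884 and 0.883, where Defb1 encodes a defensin of epithelia. Il33 was most like Tmem176b, Slc16a6 and Gm12840, at 0.858, 0.844 and 0.844, and Cd14 like Unc93b1, Nfkbia and Socs3, at 0.744, 0.737 and 0.735.

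Some of the genes overlap transcripts on the other strand, and the strand setting of the counting is not given in the sources used here. Il1a, with 403 counts, overlaps Gm14023, with 2140 counts, Il1b, with 3080, overlaps Il1bos, with 1157, and Il18, with 2966, overlaps Bco2, with 1455. Between 12 and 32 weeks on SO, Il1bos had a log2 fold change of 0.19 (adjusted p 0.669) beside 1.96 for Il1b. Gm14023 had −0.02 (adjusted p 0.964), and Bco2 rose by 0.79 (adjusted p 0.0461) beside 0.78 for Il18.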

How the data were processed

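The deposited files hold raw read counts per gene for 30 libraries, which the authors made with TopHat2 and HTSeq on GRCm38.p6, as the submitters' processing notes name them. The HTSeq summary lines were kept out. The 10 members, the pathway lists and the marker lists were chosen with earlier results of these data known. Identifiers were matched to GENCODE M21 (37693 of 39179). Counts were filtered with filterByExpr, scaled by TMM and tested 2-sided with the edgeR 4.0.16 quasi-likelihood test in R 4.3.3, with Benjamini-Hochberg adjustment over all genes tested. Diets were compared in fits of 15 mice within a time point, and time and interactions in 1 fit of 30 mice. Named genes were all members, the pathway gene of smallest unadjusted p per list and diet comparison, every pathway gene called, and the 3 genes most like each member. Alternatives were DESeq2 1.42.0, RLE scaling, no filter, an adjusted p under 0.1, a fit of only the compared diets, a replicate block, and leaving out each mouse. Floors of 3 counts cover counting error only. The procedure was tested on simulated data. The strand setting and annotation version of the counts are not given in the sources used here.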

Additional observations from a re-analysis of the deposited data

Results flagged for a closer look

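Of 60 groups of 5 mice, 4 had a mouse far from the other 4 for its distance from the nearest, where about 3 are expected by chance. Il1rn was at 3.96 CPM in PF 12-week mouse 1, against 1.09 CPM in the next mouse, a gap of 0.773 of the group's range. Nlrp3 was at 0.116 CPM in SO 12-week mouse 5, below the next mouse at 0.306 CPM (0.752 of the range). Il6 was at 0.168 CPM in LO 32-week mouse 5, against 0.0613 CPM in the next mouse (0.750 of the range), and at 0.0291 CPM in SO 12-week mouse 5, the only mouse of its group above 0 counts. The Il6 values and the Nlrp3 value, of 4 counts, rest on few counts.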

How the results depend on the processing

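The 9 tested members gave 108 results, and over 2916 alternatives 2784 kept direction and side of the threshold, 10 lost a call, 14 gained one and 108 turned direction. The turns were in 36 results, 0 of which had passed, and 9 more were in Il36g, with an adjusted p of at least 0.765 in every turned fit. Leaving out 1 mouse gave, as log2 fold change, for PF against SO at 12 weeks Il33 −0.046 to 0.16, Il36g −0.19 to 0.045; for PF against LO at 12 weeks Cd14 −0.099 to 0.0075, Il1rn −0.76 to 1.13, Nlrp3 −0.18 to 0.39, Il18 −0.075 to 0.30, Il1b −0.40 to 0.23, Tnf −0.68 to 0.086, Il1a −0.33 to 0.24; for LO against SO at 12 weeks Il18 −0.038 to 0.37; for PF against SO at 32 weeks Cd14 −0.067 to 0.15, Il18 −0.14 to 0.21, Casp1 −0.25 to 0.26, Il1b −0.61 to 0.088, Il36g −0.028 to 0.34; for PF against LO at 32 weeks Casp1 −0.19 to 0.22, Il1rn −0.73 to 0.066, Tnf −0.62 to 0.37, Il18 −0.19 to 0.23, Nlrp3 −0.40 to 0.12; for LO against SO at 32 weeks Il1b −0.041 to 0.58, Il18 −0.15 to 0.17, Il1a −0.31 to 0.15, Nlrp3 −0.42 to 0.069, Casp1 −0.28 to 0.25, Il36g −0.21 to 0.16; for LO over time Tnf −0.24 to 0.55; for PF over time Il1rn −0.39 to 0.94, Nlrp3 −0.20 to 0.43, Il1b −0.42 to 0.20, Cd14 −0.084 to 0.12, Tnf −0.18 to 0.79; for the interaction of PF with LO Il18 −0.36 to 0.088, Il1a −0.52 to 0.12, Tnf −0.35 to 0.64, Il1rn −1.53 to 0.36, Nlrp3 −0.56 to 0.057; for the interaction of LO with SO Cd14 −0.14 to 0.081, Il18 −0.31 to 0.11. Turns also came without a filter for the interaction of LO with SO in Cd14 (0.0080), with the replicate block for PF over time in Il1rn (0.075) and LO against SO at 32 weeks in Il36g (0.014), and with only the compared diets for PF against LO at 32 weeks in Casp1 (−0.0058). At an adjusted p under 0.1, LO over time gave 1335 genes, 1 member and 9 pathway genes, SO over time 1742 genes and 5 members, and PF over time 18 genes. DESeq2 called 225 genes, 1 member and 6 pathway genes for PF against SO and 75 genes and 2 pathway genes for PF against LO at 12 weeks, 109 for PF against SO, 85 for PF against LO and 6 for LO against SO at 32 weeks, 1089 genes, 1 member and 7 pathway genes for LO and 52 genes for PF over time, and 44 and 12 genes for the interactions of PF with SO and with LO. Without a filter PF over time gave 0 genes, and a fit of only the compared diets gave 1 gene for LO against SO at 32 weeks. With the mouse number as a replicate block, SO over time gave 1224 genes, 4 members (Il1b at an adjusted p of 0.0270 besides the 3) and 1 of 5 B cell markers in place of 4, LO 668 genes and PF 6. Without a filter, 1 of 4 basal markers on SO and 0 of 10 luminal markers on LO were called. Leaving out 1 mouse gave 0 to 131 genes and 0 to 6 pathway genes for PF against SO and 0 to 1 gene for PF against LO at 12 weeks, 0 to 1 gene for PF against SO at 32 weeks, 47 to 1043 genes, 0 to 1 member and 0 to 10 pathway genes for LO over time, 226 to 1556 genes, 0 to 4 members and 9 to 26 pathway genes for SO over time, 0 to 7 genes for PF over time and 0 to 4 genes for the interaction of PF with SO. The cause was not tested. The alternatives for pathway genes and markers were chosen after seeing the data. By the labels, mice of equal number share only a number. Within a time point their libraries correlated at −0.403 to 0.495 (mean 0.0940, 15 of 30 pairs over 0.1), against a mean of −0.0214 for unequal numbers (36 of 120 pairs over 0.1). Across time points the mean was 0.141 (24 of 45 pairs over 0.1) against −0.0340 (45 of 180 pairs over 0.1). The closest mouse of another diet at the same time point had the same number for 9 of 30 mice, where 6 are expected by chance, and this was not tested. Depth limits Il6, under 3 counts in 26 mice.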
